A study of Mus musculus with 2 samples.

Results

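EC4 is a cluster of ectocranial mesenchyme in the embryonic mouse coronal suture, the layer of connective tissue on the outer side of the skull bones, and *C1qtnf3* is its leading marker. Its cells were taken by the cluster label that the authors deposited for each osteogenic and mesenchymal cell, and they were 839 of the 12165 labelled cells, 469 of 5335 in the E15.5 sample and 370 of 6830 in the E17.5 sample. The authors drew the clusters from expression values of the same cells, so the levels that set EC4 apart from other clusters describe it and test nothing.

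At the coronal suture, connective tissue joins the frontal to the parietal bone. The suture mesenchyme holds progenitors of bone as well as layers of connective tissue above and below the bones. *C1qtnf3* encodes a secreted protein of the C1q and TNF related family, *Tnmd* encodes tenomodulin, a membrane glycoprotein of tendons and ligaments, and *Fgf9* encodes a secreted fibroblast growth factor. LIG is a cluster with ligament genes, and EC3 is another ectocranial cluster.

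The data are single-cell RNA counts from coronal sutures of wild-type C57BL/6J embryos, captured with 10x Genomics Chromium 3′ reagents in pools from several embryos. Each stage has a single deposited matrix, which is named its library. Dispase and collagenase II were used to free the E15.5 cells, which then underwent dead cell removal, whereas E17.5 cells were freed with collagenase IV, sorted by FACS and aggregated from 3 batches, 1 of one litter and 2 of another, whose barcodes carry the suffixes 1 to 3, with no stated link between suffix and batch. Sequencing was done in Los Angeles for E15.5 and in Oxford for E17.5. The effects of stage, enzyme, sorting, batch, sequencing site and counting version therefore cannot be told apart, and without replicates no difference was tested.

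EC4 held 4093956 unique molecular identifiers (UMIs) at E15.5 and 4493034 at E17.5. The median EC4 cell had 7955 UMIs from 2579 genes at E15.5 and 10667 UMIs from 3030 genes at E17.5, where the other labelled cells had medians of 8588 and 12380 UMIs. EC4 was thus the slightly shallower side of each comparison with them. Haemoglobin UMIs made up a median of 1.15% of an EC4 cell (E15.5) and 0.0474% (E17.5), and mitochondrial UMIs 1.64% and 2.18%. The other labelled cells had close medians, of 1.11% and 0.0511% for haemoglobin. At E17.5 the UMIs of all 370 EC4 cells were the same as in the deposited table of cells, while all 469 of the E15.5 library had fewer than there, where their median is 10740, so the E15.5 counts differ from those of that table. Levels below are CPM of UMIs summed over the cells of a cluster. Their exact Poisson intervals, and the exact intervals of ratios and of shares (Clopper-Pearson), are at 95% and cover counting error only.

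Barcode suffix 1 stood apart from suffixes 2 and 3 in its makeup. It held 0 cells of MG1, a meningeal cluster, among its 1234 labelled cells, and 32 LIG cells (2.59%), where LIG made up 11.3% and 11.6% of suffixes 2 and 3. For single genes, most EC4 levels at E17.5 are therefore given for each suffix, always in the order 1, 2 and 3, and counts of genes also without suffix 1, an alternative chosen after seeing the data. Of the labelled barcodes, 42 occurred in both libraries, and 1 barcode was EC4 in both. Between suffixes 7, 5 and 13 labelled barcodes were shared, and no EC4 barcode occurred as EC4 in more than 1 suffix. No doublet caller was run, and all labelled cells in the matrices were kept. The deposited table names 5 more cells at E15.5, 0 of them EC4, that are missing from the matrix. A rule that left out the labelled cells with the most UMIs (from the 95th percentile) or with UMIs of at least 3 marker genes of another cell type would have removed 33 of the 469 EC4 cells of the E15.5 library and 146 of the 370 of the E17.5 library. The cause of this difference was not tested.

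EC4 made up 8.79% of labelled cells in the E15.5 library (8.04 to 9.58) and 5.42% in the E17.5 library (4.89 to 5.98). In suffix 1 it was 116 of 1234 cells (9.4%), in suffix 2 it was 140 of 2770 (5.05%), and in suffix 3 it was 114 of 2826 (4.03%). The share in suffix 1 was above that of the E15.5 library, but its interval (7.83 to 11.2) holds the whole E15.5 interval. The shares in suffixes 2 and 3 were below the E15.5 share. Without suffix 1 the E17.5 share was 4.54%. A lower share of EC4 at E17.5 thus rested on suffixes 2 and 3. The part of dissociation and sorting in these shares was not tested.

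The levels of the EC4 markers follow from the clustering and are given as description. *C1qtnf3* was higher in EC4 than in any of the other 14 clusters in both libraries, the next being LIG at 223 CPM (208 to 238) at E15.5 and EC3 at 529 CPM (498 to 562) at E17.5. In EC4 it had 1789, 1377 and 1380 CPM in suffixes 1, 2 and 3, so suffix 1 was the highest and the other suffixes were alike. *Fgf9* (ENSMUSG00000021974, chromosome 14 from 58070547 to 58112720) had 55.7 CPM (48.7 to 63.4) in the E15.5 library and 32.9 CPM (27.9 to 38.7) in the E17.5 library in EC4, with 39.4, 23.7 and 39 CPM in suffixes 1, 2 and 3. These levels were 18.5-fold (14.9 to 23.1) and 9.18-fold (7.5 to 11.2) above the other labelled cells, and the next highest clusters were LIG at 16.6 CPM (12.8 to 21.1) at E15.5 and OG1, an osteogenic cluster, at 10.9 CPM (9.09 to 12.9) at E17.5. No interval of another cluster reached that of EC4 for *C1qtnf3* or *Fgf9* in either library. *Tnmd* (ENSMUSG00000031250, chromosome X from 133850980 to 133865577) had 273, 468 and 438 CPM in suffixes 1, 2 and 3 in EC4, lowest in suffix 1. It was a marker that EC4 shared with LIG, since EC4 had 0.596 times the LIG level at E15.5 and 0.609 times at E17.5, and 7.98-fold (E15.5) and 5.14-fold (E17.5) the EC3 level.

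**Figure D1:**
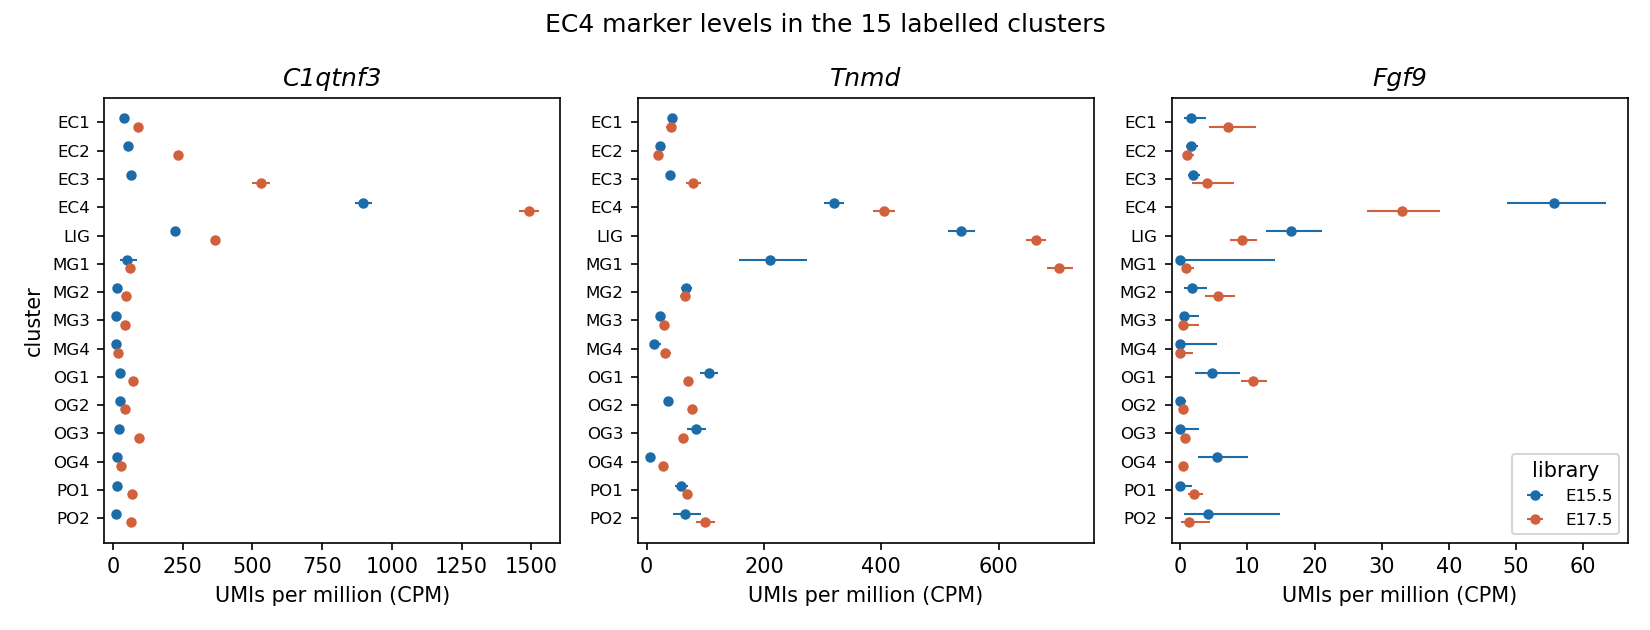
Level of *C1qtnf3*, *Tnmd* and *Fgf9* in CPM (horizontal axes, from 0) in each of the 15 labelled clusters (vertical axis) at E15.5 (blue) and E17.5 (orange), with bars for the exact Poisson 95% interval. EC4 is highest for *C1qtnf3* and *Fgf9* in both libraries, and for *Tnmd* it is below LIG in both and below MG1 at E17.5.

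To compare cells of unequal depth, each cell was thinned at random to 3000 UMIs, which left out 5 shallower EC4 cells of E15.5 and 0 of E17.5. Myeloid cells, taken as cells without a label that had UMIs of at least 4 of 6 myeloid genes, served as a reference that should lack the EC4 markers and shows the share that free RNA gives. They numbered 433 and 772, with medians of 10528 and 11294 UMIs against 7955 and 10667 in EC4. After thinning, a *C1qtnf3* UMI was found in 75.9% of EC4 cells (E15.5) and 86% (E17.5) (90.6% and 96% before thinning), and in 5.23% and 7.25% of the reference cells. *Tnmd* UMIs were found in 40.7% of EC4 cells (E15.5) and 51.9% (E17.5) (58.9% and 73.5% before thinning), against 1.43% and 6.61% of the reference cells. *Fgf9* UMIs were found in 13.4% of EC4 cells (E15.5) and 10.8% (E17.5) (30.3% and 23.5% before thinning), against 1 of 421 and 2 of 772 reference cells. All 3 markers were thus well above the free RNA share in both libraries. *C1qtnf3* and *Tnmd* UMIs occurred together in 28.7% of the thinned EC4 cells of E15.5 and 43.5% of E17.5, against 21.6% and 44.7% of LIG cells. In EC4 *C1qtnf3* occurred alone in 47.2% and 42.4%, and *Tnmd* alone in 12.1% and 8.38%. In LIG the order of the last 2 shares was the opposite, with *Tnmd* alone in 41.9% and 31.3% of cells.

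EC4 was compared with all other labelled cells of the same library. Of 6824 genes with at least 50 UMIs in EC4, observed or expected from the level of the other cells, in both libraries, 84 (1.23%) were at least 2-fold higher in EC4 in both, and 74 (1.08%) were at least 2-fold lower. Taken alone, E15.5 gave 128 higher (1.88%) and 115 lower genes (1.69%), and E17.5 gave 213 (3.12%) and 142 (2.08%). For 40 of the 84 genes EC4 ranked highest among 15 clusters at both stages, as it did for 88 of the 6824 genes tested. Of the 84 higher genes 66 were at least 2-fold higher in every suffix, and of the 74 lower genes 55 were at least 2-fold lower in every suffix. Without suffix 1 the counts were 77 and 71. These genes are those of the contrast that defined the cluster, so nothing is read from their number.

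**Figure D2:**
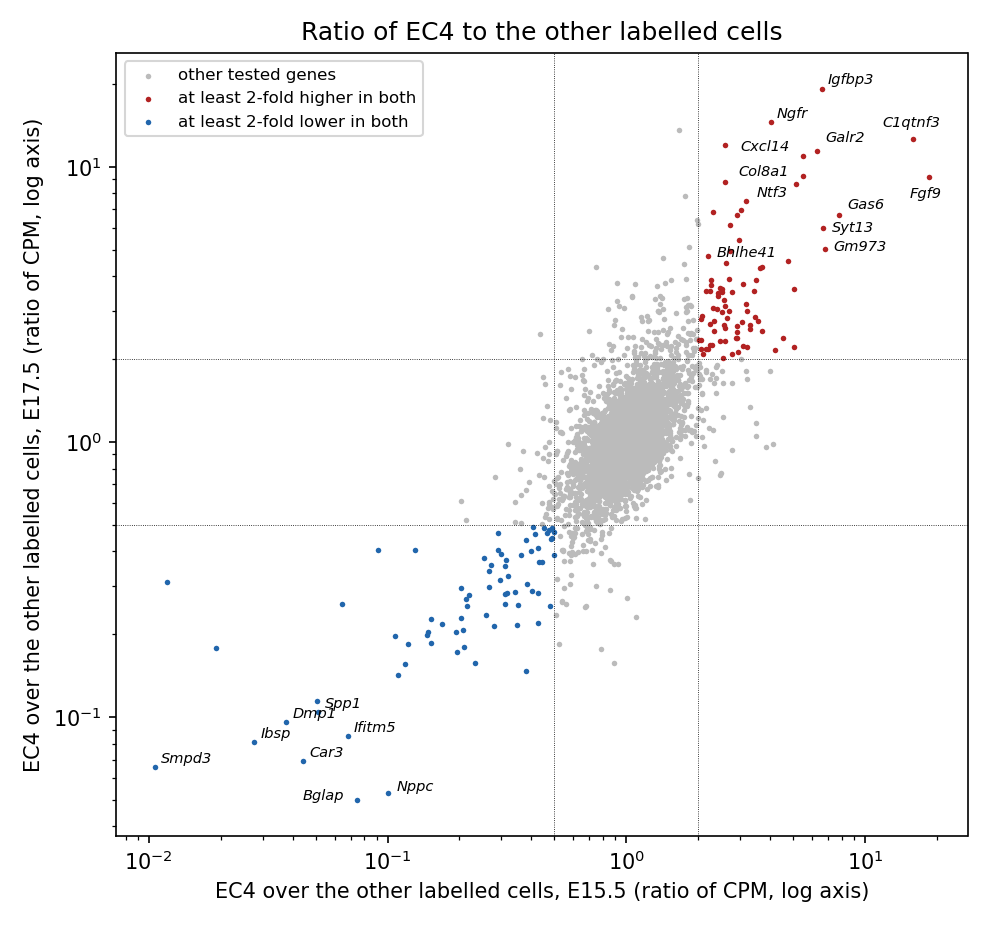
Ratio of the EC4 level to that of the remaining labelled cells at E15.5 (horizontal log axis) and at E17.5 (vertical log axis) for 6824 genes, with dotted lines at 2-fold higher and lower. Red points are the 84 genes higher and blue points the 74 genes lower in both libraries, with names for the leading genes on each side.

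*Igfbp3*, which encodes a binding protein of insulin-like growth factors, was among the 25 leading genes of EC4. The gene (ENSMUSG00000020427, chromosome 11 from 7206086 to 7213923) had 478 CPM (457 to 499) in the E15.5 library and 3198 CPM (3146 to 3250) in the E17.5 library, with 3761, 2824 and 3181 CPM in suffixes 1, 2 and 3. It was 6.59-fold (6.22 to 6.97) and 19.2-fold (18.8 to 19.7) above the other labelled cells, and all 3 suffixes were above the E15.5 level. LIG was the next highest cluster, with 374 and 911 CPM. After thinning, EC4 cells had a median of 1 and a 90th percentile of 4 UMIs of *Igfbp3* at E15.5 and a median of 8 and a 90th percentile of 25 UMIs at E17.5, with UMIs in 64% and 87.6% of cells (85.1% and 96.2% before thinning), against 2.61% and 11.3% of the myeloid reference cells. *Igfbp5* had 1430 CPM at E15.5 and 1684 CPM at E17.5 in EC4, with 2345, 1478 and 1371 CPM in suffixes 1, 2 and 3, which was 2.2-fold (E15.5) and 4.74-fold (E17.5) above the other labelled cells, beside 1493 CPM in LIG at E15.5. *Igfbp7* had 92.1 CPM at E15.5 and 409 CPM at E17.5, with 359, 443 and 409.7 CPM in suffixes 1, 2 and 3, beside 147 CPM in MG3 at E15.5. *Pappa2*, a protease that cleaves such binding proteins, had 32.2 CPM at E15.5 and 26.3 CPM at E17.5 (25.7, 26.5 and 26.4 CPM by suffix), beside 33.9 CPM in MG2 at E17.5. Relative to the others these were 2.27 and 3.88 times for *Igfbp7* and 3.45 and 2.84 times for *Pappa2*. The ligand *Igf1* itself had 828 CPM at E15.5 and 261 CPM at E17.5, 1.95-fold (E15.5) and 2.2-fold (E17.5) above the others, and was highest in suffix 1, with 420.5, 200.4 and 198 CPM in suffixes 1, 2 and 3. EC4 was not its highest cluster. LIG had 898 CPM at E15.5. The E17.5 levels were 579 and 460.5 CPM in the meningeal clusters MG4 and MG2 and 438 CPM in EC3. Of the 14 genes listed for ligands, receptors and binding proteins of this pathway 11 were tested, and 4 were higher and 0 lower, where 1.23% and 1.08% of all genes tested were. They had median log2 ratios of 0.79 and 1.14 beside -0.013 and -0.032 over all genes tested.

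Other secreted factors followed. *Cxcl14* (ENSMUSG00000021508, chromosome 13 from 56288643 to 56296551), a chemokine, had 1426 CPM (1389 to 1463) in the E15.5 library and 1541 CPM (1505 to 1578) in the E17.5 library, with 1635, 1582 and 1408 CPM in suffixes 1, 2 and 3, and was 5.48-fold (5.31 to 5.65) and 11-fold (10.7 to 11.3) above the others. *Gas6* (ENSMUSG00000031451, chromosome 8 from 13465374 to 13494490), a ligand of the TAM receptor kinases, had 267 CPM (251 to 283) in the E15.5 library and 392 CPM (374 to 410.5) in the E17.5 library, with 529, 303 and 385 CPM in suffixes 1, 2 and 3, and was 7.75-fold (7.16 to 8.38) and 6.69-fold (6.33 to 7.06) above them. EC4 was the highest cluster for both genes in both libraries, but LIG had 1099 and 499 CPM of *Cxcl14* and, at E15.5, 142 CPM of *Gas6*. *Gas6* varied more among the suffixes than *Cxcl14*. The neurotrophin *Ntf3* had 31.8 CPM at E15.5 and 66.1 CPM at E17.5, with 62.7, 70.7 and 63.3 CPM in suffixes 1, 2 and 3, 5.14-fold (E15.5) and 8.63-fold (E17.5) above the others, beside 28.33 CPM (23.35 to 34.06) in LIG and 24.96 CPM (18.41 to 33.1) in OG1 at E15.5. The neurotrophin receptor gene *Ngfr* had 66.7, 21.5 and 18.8 CPM in suffixes 1, 2 and 3, below its E15.5 level in all 3, and was 4.02-fold (E15.5) and 14.5-fold (E17.5) above the others, although EC3 had the higher level at E17.5. *Nog*, an antagonist of bone morphogenetic proteins, had 17.3 CPM at E15.5 and 53 CPM at E17.5, with 57.1, 53.5 and 48.7 CPM in suffixes 1, 2 and 3, which was 3.19-fold (E15.5) and 2.99-fold (E17.5) above the others, beside 20.6 CPM (9.9 to 38) in the cluster PO2 and 20.1 CPM (13.1 to 29.4) in OG3 at E15.5. *Sostdc1*, a secreted inhibitor of Wnt and bone morphogenetic protein signalling, had 97 CPM at E15.5 and 75.2 CPM at E17.5, 2.71-fold (E15.5) and 4.93-fold (E17.5) above the others, and spread widely over the suffixes, with 142, 64 and 32 CPM in suffixes 1, 2 and 3. *Wisp2*, a secreted matricellular protein, had 19.8 CPM at E15.5 and 94.4 CPM at E17.5 (78.8, 95.5 and 106 CPM by suffix), 3.69-fold (E15.5) and 4.3-fold (E17.5) above the others, with 40.2 CPM in OG3 at E15.5. *Galr2*, a receptor of the peptide galanin, was at the low level of 15.4 CPM at E15.5 and 16.2 CPM at E17.5 (13.7, 18.8 and 15.3 CPM by suffix), 6.28-fold (E15.5) and 11.4-fold (E17.5) above the others.

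Among growth factor ligands of the Tgf-beta and Wnt families, *Tgfb3* had 151 CPM at E15.5 and 182 CPM at E17.5, with 225, 169 and 163 CPM in suffixes 1, 2 and 3, 3.09-fold (E15.5) and 2.23-fold (E17.5) above the other labelled cells. *Wnt9a* had 36.9 CPM at E15.5 and 57.2 CPM at E17.5 (77.2, 45.3 and 55 CPM by suffix), 2.59-fold (E15.5) and 2.59-fold (E17.5) above them. These levels were not EC4's alone, since for *Tgfb3* LIG had 149 CPM (138 to 162) at E15.5 and MG2 172 CPM (161 to 185) at E17.5, and for *Wnt9a* MG3 had 35.6 CPM (27.8 to 45) at E15.5. *Wnt5a* had 95 CPM at E15.5 and 43.9 CPM at E17.5 (65.1, 35.3 and 36.2 CPM by suffix), 2.15-fold (E15.5) and 3.53-fold (E17.5) above them, but EC2, also an ectocranial cluster, had 49.1 CPM (44.3 to 54.2) at E17.5. *Wnt11* had 32 CPM at E15.5 and 19.8 CPM at E17.5 (20.9, 21.5 and 16.7 CPM by suffix), which did not reach 2-fold, at 1.5-fold (E15.5) and 1.53-fold (E17.5), and was higher in LIG at E15.5 (42.1 CPM) and in EC2 at E17.5 (49.4 CPM). *Fgf18* had 37.1 CPM at E15.5 and 44.3 CPM at E17.5 (45, 48 and 39 CPM by suffix), 1.74-fold (E15.5) and 4.42-fold (E17.5) above them, so it passed 2-fold at E17.5 alone, and LIG had 39.9 CPM at E15.5.

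Several matrix genes were higher in EC4. *Col8a1* (ENSMUSG00000068196, chromosome 16 from 57624258 to 57754737), a short-chain collagen, had 1411 CPM (1375 to 1448) in the E15.5 library and 2186 CPM (2143 to 2229) in the E17.5 library, with 2213, 2182 and 2167 CPM in suffixes 1, 2 and 3. It was 5.52-fold (5.35 to 5.7) and 9.27-fold (9.04 to 9.49) above the other labelled cells, and the suffixes were nearly equal. LIG was the next highest cluster, with 1167 and 887 CPM. The elastic fibre genes *Eln*, *Fbln2* and *Ltbp1* were higher as well. *Eln*, which encodes elastin, had 929 CPM at E15.5 and 1185 CPM at E17.5 (1449, 986 and 1207 CPM by suffix), and *Fbln2* had 749 CPM at E15.5 and 601 CPM at E17.5 (773, 487 and 597 CPM by suffix). *Ltbp1* had 100.1 CPM at E15.5 and 114 CPM at E17.5 (122, 119 and 101 CPM by suffix). Relative to the others these were 2.54 and 2.02 times for *Eln*, 2.42 and 3.46 times for *Fbln2* and 2.77 and 3.5 times for *Ltbp1*. MG2 had more *Eln* in both libraries (1016 CPM and 1918 CPM), and LIG had 104 CPM of *Ltbp1* at E15.5. *Efemp1* and *Emilin2* of the same list were lower, with 0.342 and 0.285 times for *Efemp1* and 0.362 and 0.387 times for *Emilin2*. *Aspn*, a small leucine-rich proteoglycan, had 2109 CPM at E15.5 and 2387 CPM at E17.5, with 2303, 2346 and 2511 CPM in suffixes 1, 2 and 3, 2.94-fold (E15.5) and 2.13-fold (E17.5) above the others. *Timp3*, an inhibitor of matrix proteases, had 307 CPM at E15.5 and 351 CPM at E17.5 (361, 346 and 349.8 CPM by suffix), 2.07-fold (E15.5) and 2.88-fold (E17.5) above them, with 365 CPM in MG2 at E15.5. *Col1a1* and *Col1a2*, the chains of type I collagen, were near or below the other cells, with 0.678 and 0.914 times for *Col1a1* and 0.761 and 0.848 times for *Col1a2*.

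Of 47 listed mesenchymal transcription factors 33 were tested, 5 were higher and 1 was lower in EC4, where 1.23% and 1.08% of all genes tested were. *Meox2*, a homeobox gene, had 201 CPM at E15.5 and 211 CPM at E17.5, with 292, 176 and 185 CPM in suffixes 1, 2 and 3, 2.6-fold (2.41 to 2.81) and 12-fold (11.1 to 13.1) above the others. Its level in EC4 was nearly the same in both libraries, while the other labelled cells had 77.3 CPM at E15.5 and 17.53 CPM at E17.5. The makeup of the others differed too, with EC3 at 22.2% and 2.84% and EC2 at 17.3% and 8.9% of labelled cells. Within EC3 *Meox2* had 126 and 114 CPM, and within EC2 105 and 78.2 CPM. Its level differed more within LIG, with 149 and 44.3 CPM, EC1, with 86.5 and 32 CPM, and OG1, with 39.5 and 2.76 CPM. The part of makeup in the ratio of *Meox2* to the others was not tested. *Prrx1*, a homeobox gene of limb and craniofacial mesenchyme, had 865 CPM at E15.5 and 909 CPM at E17.5, with 745, 958 and 988 CPM in suffixes 1, 2 and 3, 2.01-fold (E15.5) and 2.34-fold (E17.5) above the others, with 928 CPM in LIG at E15.5. *Meis2*, *Mn1* and *Mkx*, the last a regulator of tendon, were also above them, with 2.33 and 2.54 times for *Meis2*, 2.06 and 2.18 times for *Mn1* and 4.22 and 2.16 times for *Mkx*, though LIG had more *Mkx* in both libraries. The lower gene was *Foxc1*, with 4.88 CPM at E15.5 and 4.9 CPM at E17.5 (4.82, 3.86 and 6.26 CPM by suffix), 0.281 and 0.215 times their level. *Bhlhe41*, a circadian repressor that is not in the list, had 14.4 CPM at E15.5 and 22.5 CPM at E17.5 (28.9, 19.3 and 20.9 CPM by suffix), 4.75-fold (E15.5) and 4.54-fold (E17.5) above the others.

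*Crabp2*, a carrier of retinoic acid, had 362 CPM at E15.5 and 279 CPM at E17.5, with 319, 267 and 260.1 CPM in suffixes 1, 2 and 3, 3.04-fold (E15.5) and 6.99-fold (E17.5) above the others, although the meningeal cluster MG3 had more in both libraries. Among the lower retinoid genes were *Crabp1* at 0.196 and 0.172 times and *Aldh1a3*, a retinaldehyde dehydrogenase, at 0.118 and 0.156 times the level of the other labelled cells. The remaining 11 of the 25 leading genes, *Syt13*, *Gm973*, *Hs3st3b1*, *Kctd8*, *Syndig1*, *Tiam1*, *Gatsl3*, *Xaf1*, *Tulp1*, *Galnt18* and *Cygb*, ranged from 16.4 to 221 CPM in the E15.5 library and from 15.4 to 142 CPM in the E17.5 library. Their ratios to the others lay between 2.9 and 6.82 at E15.5 and between 3.18 and 7.5 at E17.5. Among them *Cygb* encodes cytoglobin and had 219.5, 105 and 120.3 CPM in suffixes 1, 2 and 3.

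Of the 12 genes lowest in EC4, 10 had their highest level in OG4, the osteoblast cluster, in both libraries, and 5 are in the list of osteogenic genes. *Ibsp*, which encodes bone sialoprotein, had 48.1 CPM (41.6 to 55.3) in the E15.5 library and 142 CPM (131 to 154) in the E17.5 library (104, 183 and 124 CPM by suffix) in EC4 and 1743 and 1756 CPM in the other labelled cells, a ratio of 0.0276 and 0.081. *Spp1*, which encodes osteopontin, had 11.2 CPM at E15.5 and 28.3 CPM at E17.5 (26.5, 28.1 and 29.9 CPM by suffix), at 0.0513 and 0.104 times the level of the others. *Ifitm5*, another osteoblast gene, had 9.77 CPM at E15.5 and 37.4 CPM at E17.5 (28.9, 37 and 45.2 CPM by suffix), at 0.0681 and 0.0854 times their level. *Smpd3* rested on 3 UMIs in EC4 at E15.5, a ratio of 0.0106 (0.00219 to 0.0311), and had 10.5 CPM at E17.5, a ratio of 0.0657. *Bglap*, which encodes osteocalcin, rested on 3 UMIs at E17.5, a ratio of 0.0498 (0.0103 to 0.146). *Slc13a5*, a citrate transporter, rested on 1 UMI at E15.5, a ratio of 0.0192 (0.000485 to 0.107). *Car3*, *Dmp1*, *Nppc*, *Col22a1*, *Sgms2* and *Aldh1a3* had ratios between 0.0377 and 0.118 at E15.5 and between 0.0531 and 0.156 at E17.5, of which *Nppc* and *Aldh1a3* were not highest in OG4. Of the 28 osteogenic genes listed 18 were tested and 7 were lower, where 1.08% of all genes tested were, among them *Sp7*, with 4.15 CPM at E15.5 and 34 CPM at E17.5 (36.2, 36.4 and 29.2 CPM by suffix), and 0 were higher. Their most abundant member, *Sparc*, was close to the others, at 0.957 and 1.05 times their level.

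The other lists are given by how many genes they hold, how many had enough UMIs to be tested, how many were at least 2-fold higher or lower in both libraries, and the median log2 ratio of the tested members at E15.5 and E17.5, to be read beside 1.23% higher and 1.08% lower genes and medians of -0.013 and -0.032 over all genes tested. Among signalling lists these were Fgf ligands (14 members, 2 tested, 1 higher, 0 lower, medians 2.50 and 2.67), Fgf receptors (5 members, 2 tested, 0 higher, 0 lower, medians -0.66 and -0.29) and Fgf feedback genes (14 members, 3 tested, 0 higher, 0 lower, medians 0.067 and 0.31). For Wnt signalling they were ligands (23 members, 7 tested, 2 higher, 0 lower, medians 0.59 and 1.37), receptors (18 members, 6 tested, 0 higher, 0 lower, medians 0.42 and 0.64), secreted inhibitors (13 members, 7 tested, 1 higher, 0 lower, medians 0.50 and 1.56) and response genes (11 members, 3 tested, 0 higher, 0 lower, medians -0.33 and 0.58). The higher genes were *Fgf9*, *Wnt5a*, *Wnt9a* and *Sostdc1*. *Sfrp2*, the most abundant Wnt inhibitor in EC4, had 3380 CPM at E15.5 and 6782 CPM at E17.5, 1.78-fold (E15.5) and 3.9-fold (E17.5) above the others but below LIG (5580 CPM and 10093 CPM), and went from 4584 CPM in suffix 1 to 8647 CPM in suffix 3. The lists were Tgf-beta and activin ligands (8 members, 4 tested, 1 higher, 1 lower, medians -0.11 and -0.26), Tgf-beta and activin receptors (8 members, 5 tested, 0 higher, 0 lower, medians 0.32 and 0.26), Bmp ligands (11 members, 6 tested, 0 higher, 2 lower, medians -1.47 and -0.46) and Bmp antagonists (13 members, 8 tested, 1 higher, 0 lower, medians 0.27 and 0.63). The lower ligands were *Tgfb1*, *Bmp3* and *Bmp7*, with *Bmp7* at 6.35 CPM at E15.5 and 3.56 CPM at E17.5 (4.82, 2.21 and 4.17 CPM by suffix). Further signalling lists were hedgehog genes (13 members, 8 tested, 0 higher, 0 lower, medians 0.56 and 0.43), Notch genes (14 members, 3 tested, 0 higher, 0 lower, medians 0.11 and 0.55), neurotrophins and receptors (16 members, 5 tested, 2 higher, 0 lower, medians 0.90 and 1.31), chemokines (9 members, 4 tested, 1 higher, 0 lower, medians -0.20 and 0.71) and C1q and TNF related genes (12 members, 5 tested, 1 higher, 0 lower, medians -0.29 and -0.086). In the last 3 the higher genes were those named above. For guidance and retinoid genes they were ephrins and Eph receptors (19 members, 14 tested, 1 higher, 0 lower, medians 0.61 and 0.71), semaphorins, plexins and neuropilins (21 members, 9 tested, 0 higher, 2 lower, medians -0.19 and 0.12) and retinoid genes (16 members, 8 tested, 1 higher, 3 lower, medians -0.19 and 0.52). *Efna3* was the higher ephrin, with 20 CPM at E15.5 and 21.4 CPM at E17.5 (34.6, 17.7 and 14.6 CPM by suffix), beside 25.3 CPM in LIG at E15.5 and 23.4 CPM in MG1 at E17.5. The lower semaphorin and receptor genes were *Sema3b* and *Nrp1*.

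Matrix lists were collagens (31 members, 21 tested, 1 higher, 1 lower, medians -0.19 and -0.24), elastic fibre genes (22 members, 20 tested, 3 higher, 2 lower, medians 0.38 and 0.52), small leucine-rich proteoglycans (15 members, 10 tested, 1 higher, 2 lower, medians -0.021 and 0.21) and matrix proteases and inhibitors (21 members, 13 tested, 1 higher, 0 lower, medians 0.012 and -0.00011). Among tissue lists were tendon and ligament genes (24 members, 17 tested, 2 higher, 0 lower, medians 0.084 and 0.17), osteogenic genes (28 members, 18 tested, 0 higher, 7 lower, medians -0.57 and -0.90), cartilage genes (18 members, 11 tested, 0 higher, 5 lower, medians -1.18 and -1.18), meningeal genes (17 members, 8 tested, 1 higher, 5 lower, medians -1.52 and -1.40) and dermis and hypodermis genes (21 members, 18 tested, 0 higher, 3 lower, medians -0.50 and -0.38). The lower cartilage genes were *Col9a1*, *Col11a2*, *Matn4*, *Mia* and *Epyc*, and cartilage genes summed to 463 CPM at E15.5 and 237 CPM at E17.5 (229, 251 and 226 CPM by suffix) in EC4 against 899 and 482 CPM in the others. The dermal genes *Dpt*, *Dpp4* and *Crabp1* were lower than in the others, with 0.381 and 0.147 times for *Dpt*, 0.21 and 0.179 times for *Dpp4* and 0.196 and 0.172 times for *Crabp1*. *Cldn11*, *Fxyd5*, *Nppc*, *Matn4* and *Foxc1* of the meningeal list were lower, and *Cldn11* turned to 1.56 times the others in suffix 1, with 28.1, 6.62 and 2.78 CPM in suffixes 1, 2 and 3. The list of coronal synostosis genes (16 members, 12 tested) had 0 past 2-fold in either direction and summed to 927 CPM at E15.5 and 1134 CPM at E17.5 (1151, 1163 and 1082 CPM by suffix), against 906 and 1103 CPM. Mesenchymal transcription factors had medians of 0.18 and 0.31.

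Markers of other cell types summed to levels near those of the other labelled cells, except that pericyte genes were higher in EC4 than in those cells as a whole and, at E15.5, muscle and keratinocyte genes lower. The 10 myeloid genes summed to 65.5 CPM at E15.5 and 219 CPM at E17.5 against 61.4 and 196 CPM, with 216, 202 and 244 CPM in suffixes 1, 2 and 3, *Lyz2* as the most abundant at E15.5 and *Pf4* at E17.5, and 0 members without a UMI. The 8 endothelial genes summed to 40.5 CPM at E15.5 and 35.2 CPM at E17.5 (37, 33.7 and 35.5 CPM by suffix) against 35.1 and 28.5 CPM, led by *Cdh5* and *Egfl7* and with 0 members without a UMI. The 9 skeletal muscle genes, led by *Tnnt3*, summed to 11.5 CPM at E15.5 and 9.79 CPM at E17.5 (9.65, 9.94 and 9.74 CPM by suffix) against 62 and 8.84 CPM. *Myod1*, *Myf5* and *Myh3* had 0 UMIs in both libraries, and *Actc1* and *Myog* at E17.5. The 6 keratinocyte genes, led by *Krt10*, summed to 37.9 CPM at E15.5 and 43.9 CPM at E17.5 (33.8, 46.4 and 49.4 CPM by suffix) against 55.9 and 40 CPM, with *Krt15* and *Trp63* at 0 UMIs at E17.5. The 7 genes of Schwann cells and glia summed to 104 CPM at E15.5 and 27.8 CPM at E17.5 (60.3, 14.9 and 16 CPM by suffix) against 114 and 26.8 CPM, mostly *S100b*, with 102 CPM at E15.5 and 24.7 CPM at E17.5 (55.5, 12.1 and 13.9 CPM by suffix). Of these 7 genes 5 had 0 UMIs at E15.5 and 3 at E17.5, *Foxd3* and *Cdh19* at both. Pericyte genes (6 members, 3 tested) summed to 173 CPM at E15.5 and 158 CPM at E17.5 (230, 119 and 145 CPM by suffix) against 92 and 79 CPM, but EC3 had 286 CPM at E17.5. Most of this was *Kcnj8*, a potassium channel gene, with 117 CPM at E15.5 and 106 CPM at E17.5 (169, 76.2 and 90.4 CPM by suffix), 2.7-fold (E15.5) and 2.98-fold (E17.5) above the others, with EC2 highest at E17.5 (227 CPM). *Higd1b* had 0 UMIs at E15.5. Red cell genes summed to 11145 CPM at E15.5 and 513 CPM at E17.5 (329, 544 and 633 CPM by suffix) in EC4 and 10882 and 548 CPM in the others, and so moved between the libraries in all labelled cells. Their part in the results was not tested.

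LIG was the cluster with the fewest 2-fold differences from EC4. Genes were taken here with at least 50 UMIs in EC4, observed or expected from the other cluster, a choice made after seeing the data. Between EC4 and LIG 61 of 6772 genes (0.901%) differed at least 2-fold in both libraries, between EC4 and EC3 249 of 6851 (3.63%), and between EC4 and OG4 1221 of 6949 (17.6%), the most of the 14 clusters. The correlation of log levels over the 6446 genes with at least 50 UMIs in EC4 in each library was highest with LIG in both libraries, at 0.985 and 0.977 (Pearson), against 0.964 and 0.955 with EC3. It is taken across genes of the same library, which are not independent replicates.

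EC4 and LIG differed mainly on the higher side of EC4. Of 6772 genes tested 47 (0.694%) were at least 2-fold higher in EC4 in both libraries and 14 (0.207%) lower, and without suffix 1, which holds few LIG cells, the counts were 43 and 12. At E15.5 alone 70 (1.03%) were higher and 38 (0.561%) lower, and at E17.5 alone 194 (2.86%) and 32 (0.473%). *Ly6a*, which encodes the surface antigen Sca-1, had 265 CPM (249.7 to 282) in the E15.5 library and 140.2 CPM (129.5 to 152) in the E17.5 library in EC4, with 215, 103 and 122 CPM in suffixes 1, 2 and 3, and 39.1 and 18 CPM in LIG, a difference of 6.78-fold (5.73 to 8.07) and 7.78-fold (6.54 to 9.29). EC4 was nevertheless below the other labelled cells as a whole for *Ly6a*, at 0.717 and 0.678 times their level, and the ectocranial cluster EC2 was highest. *Tmem100*, *Kcnj8*, *Ramp3* and *Chrdl1*, the last an antagonist of bone morphogenetic proteins, were above LIG, with 5.18 and 5.94 times for *Tmem100*, 4.4 and 7.59 times for *Kcnj8*, 4.42 and 8.63 times for *Ramp3* and 3.58 and 7.75 times for *Chrdl1*. *Tmem100* had 151, 56.9 and 35.5 CPM in suffixes 1, 2 and 3 and *Chrdl1* 58.7, 17.1 and 11.8 CPM in suffixes 1, 2 and 3, so suffix 1 was highest for both. *Ly6c1*, *Npnt*, *Galnt18* and *Tnfrsf11b*, which encodes osteoprotegerin, were between 3.5 and 8.14 times LIG at E15.5 and between 4.25 and 15.9 times at E17.5. *C1qtnf3* itself was 4.03-fold (E15.5) and 4.08-fold (E17.5) above LIG.

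*Tac1*, the gene of the neuropeptide substance P, led the lower side, with 10.3 CPM (7.39 to 13.9) in the E15.5 library and 57.4 CPM (50.6 to 64.9) in the E17.5 library in EC4, 42.6, 75.6 and 47.3 CPM in suffixes 1, 2 and 3, and 55.4 and 339.8 CPM in LIG. EC4 was at 0.185 (0.13 to 0.259) and 0.169 (0.148 to 0.192) times the LIG level. *Chodl* had 27.9 CPM at E15.5 and 50.1 CPM at E17.5 (54.7, 46.4 and 50.8 CPM by suffix) in EC4, 0.35 and 0.157 times the LIG level, and EC4 was its next highest cluster after LIG in both libraries. The homeobox genes *Six2* and *Gsc* were below LIG, with 0.11 and 0.309 times for *Six2* and 0.137 and 0.43 times for *Gsc*. With *Cpm*, *Crispld1*, *1500015O10Rik*, *Ndnf*, *Matn4* and *Tceal3* they lay between 0.11 and 0.426 at E15.5 and between 0.213 and 0.435 at E17.5. *Ndnf* had 24 UMIs in EC4 at E17.5, and its ratio turned to 1.15 when cells were thinned to 3000 UMIs. *Ly6a* and *Tnmd* UMIs occurred together in 9.91% of thinned EC4 cells of E15.5 and 10.5% of E17.5. The shares were 5.19% and 4.74% in LIG and 4.4% and 7.73% in EC3. *Ly6a* occurred alone in 25.65% and 14.3% of EC4 cells and in 3.73% and 1.78% of LIG cells. *Tnmd* occurred alone in 30.8% and 41.35% of EC4 cells and in 58.3% and 71.3% of LIG cells. An association of the genes within cells was not tested.

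Against EC3 the number of differing genes was larger. Of 6851 genes tested 128 (1.87%) were at least 2-fold higher in EC4 in both libraries and 121 (1.77%) lower, with 122 and 114 without suffix 1. At E15.5 alone 252 (3.68%) were higher and 179 (2.61%) lower, and at E17.5 alone 255 (3.72%) and 284 (4.15%). *Cxcl14* was 12.3-fold (11.6 to 13.1) and 12.5-fold (11 to 14.3) above EC3, and *Nog* was 12.4-fold (E15.5) and 14.9-fold (E17.5) above it. *Hmga2*, a chromatin protein gene of embryonic cells, had 14.2 CPM at E15.5 and 30.7 CPM at E17.5 in EC4, with 16.9, 37 and 34.8 CPM in suffixes 1, 2 and 3, and 1.03 and 1.02 CPM in EC3. *Pthlh*, which encodes parathyroid hormone-related protein, had 27.6 CPM at E15.5 and 15.4 CPM at E17.5 in EC4, with 26.5, 11 and 11.1 CPM in suffixes 1, 2 and 3, and 2.05 and 1.52 CPM in EC3. EC3 thus had little of both genes in both libraries. *Fgf9* was 28.4-fold (E15.5) and 8.11-fold (E17.5) above EC3, and *Syt13*, *Gm973*, *Lmcd1*, *Trabd2b* and *Bhlhe41* were between 7.92 and 10.3 times EC3 at E15.5 and between 8.33 and 22.1 times at E17.5. On the lower side, *Dpp4*, a dermal fibroblast gene, had 26.9 CPM (22.1 to 32.4) in the E15.5 library and 4.67 CPM (2.89 to 7.14) in the E17.5 library (4.82, 2.21 and 7.65 CPM by suffix) in EC4 and 236 and 109.7 CPM in EC3. Relative to EC3 the levels were 0.113 and 0.0779 times for *Bmp7* and 0.0921 and 0.0603 times for *Aldh1a3*. *Gata6*, a GATA factor gene, had 16 UMIs in EC4 (E15.5) and 3 (E17.5), a ratio of 0.0585 and 0.0346 (0.00683 to 0.109), and *Gabra2* had 1 and 4, a ratio of 0.0138 (0.000347 to 0.0777) and 0.0487. *Stxbp6*, *Ifit1*, *Il13ra1*, *Rorb* and *Creb5* had ratios between 0.0573 and 0.129 at E15.5 and between 0.0534 and 0.123 at E17.5. EC3 had 194 cells at E17.5.

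**Figure D3:**
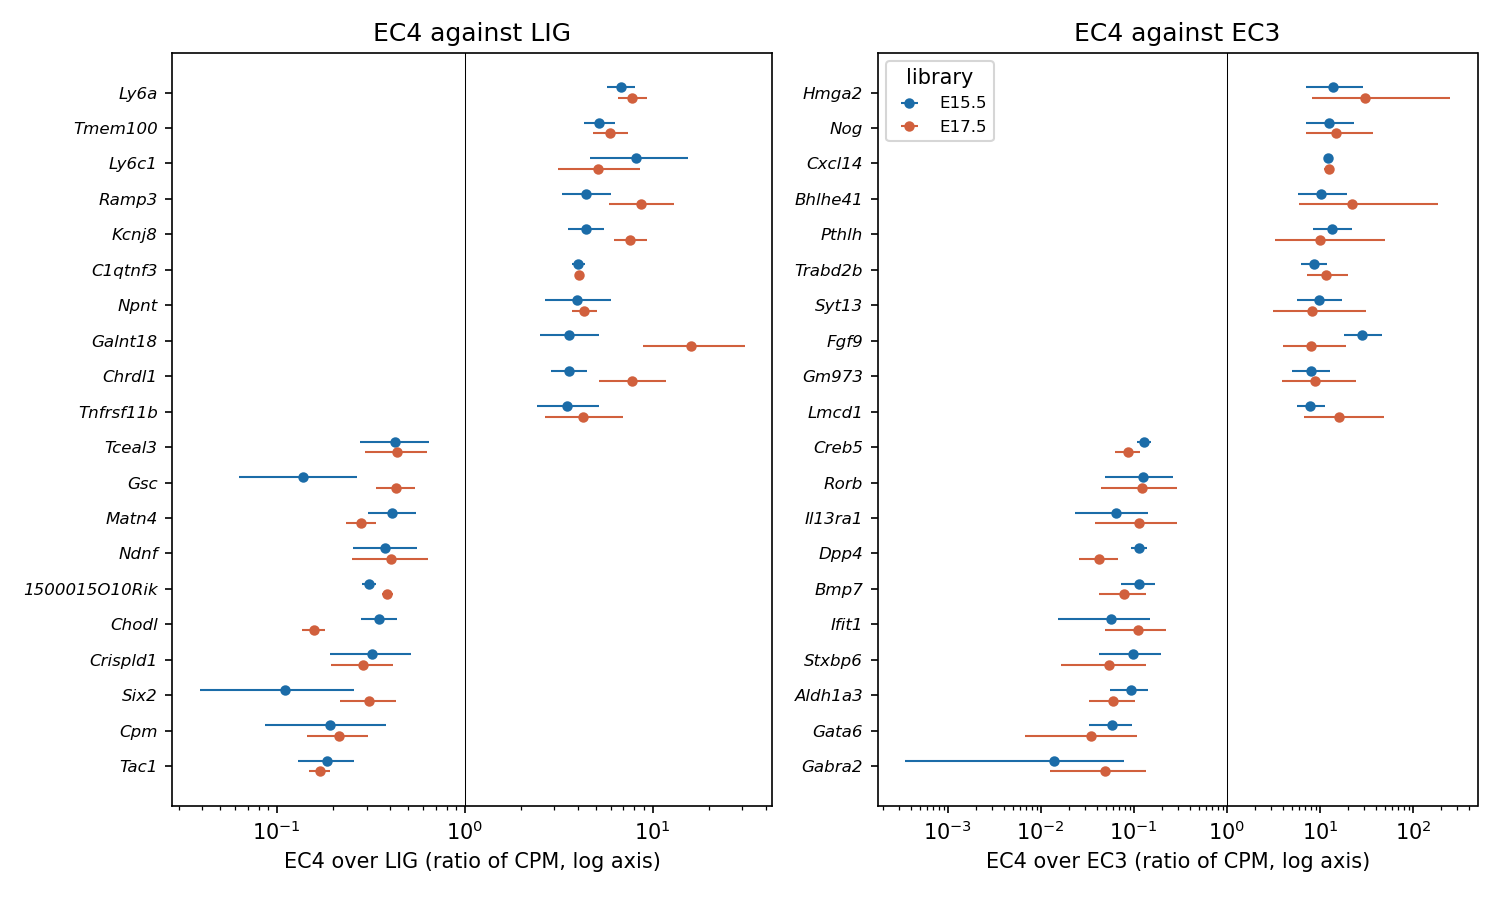
Ratio of the EC4 level to that of LIG (left) and of EC3 (right) on log axes at E15.5 (blue) and E17.5 (orange), with bars for the exact 95% interval, for the 10 leading genes in each direction. The vertical line is at equal levels, and every gene shown lies on the same side of it in both libraries.

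The median position of EC4 was nearer to LIG than to EC3 along the genes that separate these clusters, which were chosen after the data were seen. For the 118 genes at least 2-fold higher in LIG than in EC3 in both libraries, the EC4 level fell between them for 75 at E15.5 and 74 at E17.5 (58 in both), and was at or above LIG in both libraries for 26. On a log scale with EC3 at 0 and LIG at 1, the median position of EC4 for these genes was 0.86 and 0.885, against 0.13 and 0.374 for EC1. For the 172 genes higher in EC3, EC4 was between for 143 and 144 (125 in both). With LIG at 0 and EC3 at 1 its median position was 0.335 and 0.314, against 0.912 and 0.646 for EC1.

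Between the libraries, the EC4 level relative to the other labelled cells was at least 2-fold higher at E17.5 for 152 of 7621 genes (1.99%) and at least 2-fold lower for 58 (0.761%), with 171 and 86 without suffix 1. In suffixes 1, 2 and 3 alone 199, 194 and 178 genes were higher and 193, 117 and 197 lower. Against the mean of the other 14 clusters, which gives each cluster the same weight, 113 were higher and 99 lower. In cells thinned to 3000 UMIs 268 were higher and 210 lower. The excess of higher genes therefore differed with the cells compared and with thinning. Each suffix alone also holds fewer EC4 UMIs than the 3 together, and the effects of suffix and depth cannot be told apart here. The EC4 level itself differed at least 2-fold for more genes, 366 higher (4.8%) and 520 lower (6.82%), and there differences between the libraries that touched all cells are included. The intervals that follow are normal intervals on the log scale from the counts.

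*Pou3f1*, a POU homeobox gene, had 2.93 CPM at E15.5 and 18.5 CPM at E17.5 in EC4, with 19.3, 16.6 and 20.2 CPM in suffixes 1, 2 and 3, and 1.75 and 1.06 CPM in the other labelled cells, so that its ratio to them rose by a factor of 10.5 (5.32 to 20.6). *Itgbl1* had 4.4 CPM at E15.5 and 104 CPM at E17.5 in EC4, with 106, 86.1 and 126 CPM in suffixes 1, 2 and 3, and 11.3 and 47.5 CPM in the other labelled cells, a factor of 5.65 (3.5 to 9.13). For *Pou3f1* and *Itgbl1* all 3 suffixes were above the E15.5 level. *Chad*, which encodes chondroadherin, had 1.47 CPM at E15.5 and 18.5 CPM at E17.5 in EC4, with 41.8, 11.6 and 6.96 CPM in suffixes 1, 2 and 3, and so was highest in suffix 1. *C1s1*, *Grin2a*, *Stmn2* and *Cbln2* had factors between 5.68 and 8.4, and *Grin2a*, *Stmn2* and *Cbln2* had a lower EC4 level at E17.5 than at E15.5. In suffix 1 the ratio of *Cbln2* to the others was 0.559, beside 2.87 and 5.99 in suffixes 2 and 3. Of the genes higher in EC4 in both libraries, *Igfbp3* had a factor of 2.92 (2.75 to 3.1), *Cxcl14* 2.01 (1.92 to 2.1), *Meox2* 4.62 (4.14 to 5.17) and *C1qtnf3* 0.79 (0.744 to 0.838).

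On the lower side, *Kera*, which encodes keratocan, had 22.7 CPM at E15.5 and 0.445 CPM at E17.5 (0.804, 0 and 0.696 CPM by suffix) in EC4, from 93 and 2 UMIs, a factor of 0.102 (0.0246 to 0.418). *Npr3*, the natriuretic peptide clearance receptor, had 38.6 CPM at E15.5 and 1.33 CPM at E17.5, 0, 0.552 and 3.48 CPM in suffixes 1, 2 and 3, and a factor of 0.114 (0.0499 to 0.26). *Tspan8* had 14.9 CPM at E15.5 and 0 UMIs at E17.5, which allows up to 0.668 CPM if 3 counts are taken as the limit, beside 1.15 CPM in the other cells. *Gm26802*, an unnamed locus, had 24.2 CPM at E15.5 and also 0 UMIs at E17.5, beside 17.2 and 1.85 CPM in the other labelled cells. *Gm17056* had 31.3 CPM at E15.5 and 1 UMI at E17.5, with 25.4 and 0.954 CPM in the others, so its factor of 0.19 (0.0262 to 1.37) was not resolved at this depth. *Lpl*, lipoprotein lipase, had 26.4 CPM at E15.5 and 3.56 CPM at E17.5 (1.61, 5.52 and 2.78 CPM by suffix), a factor of 0.176 (0.103 to 0.298). *Alpl*, the alkaline phosphatase of bone, stayed at 63.3 CPM at E15.5 and 60.8 CPM at E17.5 (82, 53 and 52.2 CPM by suffix) in EC4 while the others went from 57.6 to 262 CPM, a factor of 0.211 (0.177 to 0.251). *Erg* had 5.13 CPM at E15.5 and 13.6 CPM at E17.5 (8.84, 16 and 14.6 CPM by suffix), a factor of 0.181 (0.105 to 0.311). The level of *Erg* in EC4 was thus higher at E17.5, but that of the others, with 1.86 and 27.2 CPM, differed by more. The osteogenic clusters among the others differed in share between the libraries. OG1 made up 4.89% and 14.8% of labelled cells, OG2 9.15% and 7.64%, OG3 2.62% and 13.6%, and OG4 3.56% and 7.72%. The part of makeup in the factors of *Alpl*, *Erg* and the other genes was not tested.

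The summed level of immediate early and heat shock genes, which respond to tissue dissociation, was lower at E17.5, in EC4 and in the other labelled cells. The 18 listed genes summed to 3912 CPM at E15.5 and 1304 CPM at E17.5, with 1508, 1218 and 1235 CPM in suffixes 1, 2 and 3, and to 4598 and 2519 CPM in the other labelled cells. Of them 14 were tested, with 0 past 2-fold in both libraries and medians of -0.14 and -0.73. *Fos*, the most abundant at E15.5, had 1288 CPM at E15.5 and 298 CPM at E17.5, with 495, 222 and 222 CPM in suffixes 1, 2 and 3. The part of this difference in other results was not tested. The summed level of contractile genes of smooth muscle was instead higher at E17.5, in EC4 and in the other labelled cells. The 10 listed genes (5 tested, 0 past 2-fold in both, medians 0.36 and 0.98) summed to 771 CPM at E15.5 and 2077 CPM at E17.5 in EC4 and 736 and 1581 CPM in the others, with 1083, 2630 and 2240 CPM in suffixes 1, 2 and 3 of EC4. LIG had more than EC4 in both libraries, with 1059 and 3216 CPM. *Acta2*, which encodes smooth muscle actin, had 58.4 CPM at E15.5 and 506 CPM at E17.5, with 180.1, 689.5 and 556 CPM in suffixes 1, 2 and 3, 1.28-fold (E15.5) and 2.03-fold (E17.5) above the others. Cell cycle genes (30 members, 30 tested, 0 past 2-fold in both) had medians of -0.43 and -0.67. In EC4 they summed to 1199 CPM at E15.5 and 1304 CPM at E17.5 (1047, 1759 and 954 CPM by suffix). The others had more, with 1570 and 1957 CPM, and hold the proliferative clusters PO1 and PO2. LIG had 1116 and 1288 CPM and EC3 1217 and 689 CPM, so EC4 was above LIG in both libraries and above EC3 at E17.5.

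EC4 also differed among the E17.5 suffixes. Of 3631 genes with at least 150 UMIs in EC4 over the suffixes, 16 (0.441%) were at least 2-fold higher in suffix 1 than in both others and 13 (0.358%) at least 2-fold lower, and 5 of the 16 and 3 of the 13 did the same in the other labelled cells. The genes named here were chosen after their values were seen. *Igfbp6* had 276, 56.3 and 55.6 CPM in suffixes 1, 2 and 3, and the others 250.2, 99.4 and 104 CPM. *Pi16*, a gene of adventitial and dermal fibroblasts, had 142, 34.8 and 27.8 CPM in EC4 and 445, 145 and 150.2 CPM in the others. Both were thus higher in suffix 1 inside and outside EC4. *Hpgd*, which encodes a prostaglandin dehydrogenase, had 70, 24.8 and 29.9 CPM in EC4 and 10.8, 5.21 and 5.73 CPM in the others, again highest in suffix 1. *Sostdc1* had 142, 64 and 32 CPM in EC4 but 13.7, 17.4 and 13.9 CPM in the others, where suffix 1 was not the highest. On the lower side were the contractile genes *Acta2*, *Tagln* and *Actg2*, with *Tagln* at 160, 507 and 409 CPM in EC4 and 68.4, 175 and 185 CPM in the others. In suffix 2, 9 genes (0.248%) were at least 2-fold higher than in both other suffixes. They were *Spc25*, *Ube2c*, *Ccna2*, *Cdca8*, *Cdca3*, *Prc1*, *Cdk1*, *Birc5* and *Cks2*, and no gene group was tested among them. *Cks2* had 68.3, 172 and 65.4 CPM and *Birc5* 70.8, 163 and 70.2 CPM in EC4, where the other labelled cells had 183, 224 and 210.4 CPM and 166, 191 and 181 CPM. In suffix 3 only *Sostdc1* was at least 2-fold lower and 0 genes were higher.

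Among EC4 cells thinned to 3000 UMIs, the variance of a gene's UMIs over its mean, which is 1 for pure counting noise, had a median of 1.04 at E15.5 and 1.05 at E17.5 over 3206 genes. The 12 highest genes were *Malat1*, *Actb*, *Meg3*, *Dlk1*, *Itm2a*, *Dcn*, *Col1a2*, *Col1a1*, *Cxcl14*, *Sfrp2*, *Fos* and *Igfbp5*. *Malat1*, a nuclear long noncoding RNA, had 17.8 and 20.1. *Dlk1*, an inhibitor of fat cell differentiation, had 6.36 and 7.09 in EC4 and 9.67 and 18.4 in the other labelled cells, and *Sfrp2* had 3.93 and 24.4 against 7.38 and 27.7. The others are a mix of 14 clusters, so the sides are not alike in kind. *Cxcl14* had 4.26 and 4.85 in EC4 and 4.33 and 2.77 in the others, with a median of 3 and a 90th percentile of 9 UMIs per thinned EC4 cell at E15.5 and a median of 3 and a 90th percentile of 10 UMIs at E17.5. *C1qtnf3* had 2.72 and 4.87, with a median of 2 and a 90th percentile of 7 UMIs at E15.5 and a median of 4 and a 90th percentile of 12 UMIs at E17.5.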

How the data were processed

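The matrices deposited by the authors hold UMI counts of called barcodes to which their limits on cells had not been applied. The paper gives default settings for the aggregation of the E17.5 batches. The deposited table of labelled cells gives counts per cell, percent mitochondrial, Hbb and Hba UMIs, and the cluster labels that the authors made with Seurat 3.2.0. Cell Ranger 3.1.0 stands in the header of the E15.5 file, where the paper states 2.1.1, and this file lists 31053 genes where the E17.5 matrix lists 27998. Genes were matched by symbol, and positions are those of GRCm38.

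The scripts ran in Python 3.11.15 using numpy 2.4.6, scipy 1.17.1, pandas 2.3.3 and matplotlib 3.10.9. Cell limits were those the authors state, 1000 UMIs and 1000 genes as the minimum, and 7.5% mitochondrial UMIs and 3% of Hbb and of Hba UMIs as the maximum, passed by 8117 (E15.5) and 8767 (E17.5) barcodes. Hbb and Hba were held to the limit one by one, which the paper does not spell out, and the numbers that passed are not those of the paper. Labelled cells outside these limits, 93 at E15.5 of which 3 are EC4, were kept. UMIs were summed per cluster and library, and a gene was called at 2-fold or more in both libraries with at least 50 UMIs. The code was tested on simulated data.

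The genes named were the 25 highest and 12 lowest in EC4 by their weaker library, the 10 in each direction against LIG and EC3, the 8 in each direction between stages, the 12 with the largest variance over the mean, the markers, the genes that the study names for EC4, and from each of 42 lists the members past 2-fold and the most abundant. The members and lists were chosen with earlier results of these data known. Alternatives were other cell filters, thinning, other normalizations, each suffix alone, cells that may be doublets left out, other comparison groups, other limits on UMIs and fold, and matching by identifier. Leaving out suffix 1, and counting the genes that differ from each cluster with a limit on either side, were added after seeing the data. In situ and mutant experiments were not analysed here.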

Additional observations from a re-analysis of the deposited data

Results flagged for a closer look

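For 12 of the genes named, the ratio of EC4 to the other labelled cells had an interval above 1 in one library and below 1 in the other, and all 3 suffixes were on the side of the E17.5 library. Further named genes crossed 1 without meeting this limit, such as *Alpl*, whose E15.5 interval includes 1, *Gm17056*, whose E17.5 interval does, and *Cbln2*, which was below the others in suffix 1 and above them at E17.5 as a whole. The ratio of EC4 to the others was 2.46 (E15.5) and 0.759 (E17.5) for *Npnt*, 2.87 (E15.5) and 0.327 (E17.5) for *Npr3*, 2.75 (E15.5) and 0.498 (E17.5) for *Erg* and 1.08 (E15.5) and 0.884 (E17.5) for *Ctsk*, all above the others at E15.5 and below at E17.5. *Gm26802* went from 1.41 to 0, from 0 UMIs at E17.5. The opposite order held for *C1s1*, with 0.361 (E15.5) and 3.03 (E17.5), for *Stmn2*, with 0.744 (E15.5) and 4.32 (E17.5), for *Itgbl1*, with 0.389 (E15.5) and 2.2 (E17.5), for *Dlk1*, with 0.908 (E15.5) and 1.67 (E17.5), for *Dcn*, with 0.754 (E15.5) and 1.29 (E17.5), for *Nkd1*, with 0.793 (E15.5) and 1.27 (E17.5), and for *Sparc*, with 0.957 (E15.5) and 1.05 (E17.5). In EC4 itself the level was lower at E17.5 for *Dlk1*, with 3698 and 1571 CPM, and for *Dcn*, with 3931 and 2368 CPM. *Sparc* had 7819 and 10046 CPM. The makeup of the others, given above for *Meox2*, differed between the libraries, and its part in these ratios was not tested. The difference between the libraries was not tested for any of these 12 genes, since each stage has 1 library. The E17.5 values of *Sparc* and *Ctsk* are near those of the other cells.

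*C1qtnf3*, the leading marker of EC4, was also found in cells that passed the filters but carry no deposited label. At E15.5 the 2442 such cells outside the myeloid reference had 212 CPM (206 to 218), and 19.6% of them had at least 5 UMIs, with a median depth of 9630 UMIs. At E17.5 the 1165 such cells had 86 CPM (81.6 to 90.6), and 6.78% had at least 5 UMIs, with a median depth of 10089. The myeloid reference cells had 30.3 and 46.6 CPM, with 1.85% and 2.72% at 5 UMIs or more, and EC4 had 57.4% and 81.6%. Which cell types these unlabelled cells are was not tested.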

How the results depend on the processing

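No paired analysis was possible because each stage has a single library, so that the stages share fewer than 2 replicate numbers and no test was run. With all kept cells as the denominator the EC4 share was 5.71% (E15.5) and 4.22% (E17.5). As a share of labelled cells at E17.5 it was 9.4% in suffix 1, 4.03% in suffix 3 and 4.54% without suffix 1, the last chosen after seeing the data. In cells thinned to 3000 UMIs the counts between stages were 268 higher and 210 lower, and 184 higher and 118 lower without cells that may be doublets, a rule that leaves out 2695 of 6830 labelled cells at E17.5. In suffixes 1, 2 and 3 alone 199, 194 and 178 genes were higher and 193, 117 and 197 lower between stages. Against the mean of the other 14 clusters 116 genes were lower in EC4, and 113 were higher and 99 lower between stages. The cause of these changes was not tested, except that a limit on UMIs or fold sets how many genes can pass. With at least 20 UMIs, the higher and lower counts were 129 and 140 against the other labelled cells, 81 and 34 against LIG, 194 and 193 against EC3, and 326 and 178 between stages. With at least 100 UMIs 40 genes were lower than the others, 30 higher and 6 lower than LIG, 83 higher than EC3, and 97 higher and 36 lower between stages. At 1.5-fold, the 8 counts in the same order were 227, 179, 138, 52, 293, 269, 472 and 287, and at 3-fold 21, 39, 16, 4, 64, 56, 42 and 17. The other counts, matching by identifier included, were within 1.5 times those reported. Of 5013 ratios of named genes over these settings 4044 stayed within their counting interval, 967 moved beyond it and 2 of genes past 2-fold in both libraries reversed, *Ndnf* over LIG at E17.5 in thinned cells (1.15) and *Cldn11* over the others at E17.5 in suffix 1 (1.56), and the cause was not tested. Of the 4044 and 967, ratios of genes not past 2-fold in both crossed 1 in 101 cases, such as *Cbln2* over the others at E17.5 in suffix 1 (0.559). In thinned cells and in suffixes 1 and 3 alone some ratios had no value, since the cells compared with EC4 had 0 UMIs of the gene. What limits these results is that each stage has a single library and that the deposited data do not tie suffixes to batches. Enzyme, sorting, sequencing site and counting version also differ along with stage. Free RNA was gauged only through the myeloid reference, and the rule for doublets left out so many cells at E17.5 that it says little there. Clusters were drawn from the same values, and genes with few UMIs in EC4 have wide intervals.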
